A study of Saccharomyces cerevisiae with 8 samples.

Results

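The 10 genes described here encode enzymes and regulatory subunits of trehalose and glycogen metabolism in Saccharomyces cerevisiae (budding yeast): PGM2, TPS1, TPS2, TSL1, TPS3, NTH1, GSY1, GSY2, GLC3 and GPH1. They were matched by gene name or systematic name among the 6256 genes on the array, by a rule that uses no measured value, although the list was drawn up with earlier results of these data known. All 10 were among the 6126 genes that passed the signal filter. Total RNA of 7 aneuploid strains, which carry an abnormal number of chromosomes, was labelled with Cy5 (red) and hybridised on 2-colour Agilent arrays against Cy3-labelled (green) RNA of a wild-type sample, WT2. The strains are A2, A3, A9 and A10, and A13, A14 and A15. A further wild-type sample, WT1, set against WT2 in the same way on 1 array, served as the control. All cells were harvested in mid-log phase, and the labels give no treatment. The labels give neither the karyotype, mating type, ploidy nor parentage of any strain. They also leave unsaid whether each sample was a culture of its own, and a p-value therefore reflects the variation among these samples, some of it possibly technical.

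Yeast stores glucose as trehalose, a disaccharide that also protects proteins and membranes under stress, and as glycogen, a branched polymer. Both reserves are low in cells growing fast on glucose, and the genes for making and for breaking them down are known to be induced together when growth slows or the environment turns harsh. Phosphoglucomutase supplies the glucose 1-phosphate from which UDP-glucose, the donor for both reserves, is made, and the protein kinase A pathway is known to restrain the genes through the transcription factors Msn2 and Msn4.

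Each array measured every gene with 2 spots, and the 8 arrays shared 1 slide and 1 scan time. The first row of the slide held A10, A9, A3 and A2, and the second held the remaining strains and WT1. No dyes were swapped, so an effect of the dyes common to all arrays remains in each ratio over WT2 and cancels in the difference from WT1. Values are log2 ratios over WT2 unless stated, so that 1 is a doubling, and each strain was measured on 1 array. The number of arrays limits the precision. The SD of a single spot, estimated from the differences of duplicate spots, was 0.06 to 0.08 over all genes of an array. In each strain the median ratio of at least 1 chromosome reached 0.3 or more, called raised here, and each gene was therefore also read after subtracting the median of its chromosome on the same array. Chromosome II was raised in A2, A3, A9 and A15, with medians of 0.66, 0.73, 0.64 and 0.49. Chromosome XII was raised in A2, A3 and A10, XIII in A9, and XVI in A9 and A14. The other raised chromosomes carry none of the 10 genes. In A13, chromosomes II and XIII had medians of 0.27 and 0.19, short of the 0.3 that counts as raised. Relative to these medians, the A13 values were 0.23 for TPS1, 0.52 for PGM2, 0.43 for TPS3 and 1.55 for TSL1.

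The signals of the 10 genes were well measured. All 80 of the 80 values were well above background in both channels, 0 were saturated, and the 2 spots differed by a median of 0.05. The exception was GSY2 on the WT1 array, where 1 spot read 1.54 with a green signal of 195 and a background flag in the scanner output, and the other read -0.03 with a green signal of 814. The WT1 value of GSY2, 0.76, is the mean of these discordant spots and was the 3rd highest of all genes on that array. Without the flagged spot it was -0.03, so each GSY2 difference from WT1 is given both ways.

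The direction of these genes was not the same on all strain arrays. The median of the 10 genes was 1.24 in A9, 1.60 in A10, 0.67 in A13 and 0.36 in A14, against -0.49 in A2, -0.45 in A3 and -0.69 in A15, and was 0.10 on WT1. All 10 genes were above WT2 in A9, A10 and A13 and 9 of 10 in A14, whereas 2 were above it in A2, 1 in A3 and 1 in A15. On WT1, 9 of the 10 were above WT2, with values from -0.15 to 0.76. In RNA of whole cultures a difference in RNA per cell cannot be told apart from a difference in the share of cells that make it.

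**Figure D1:**
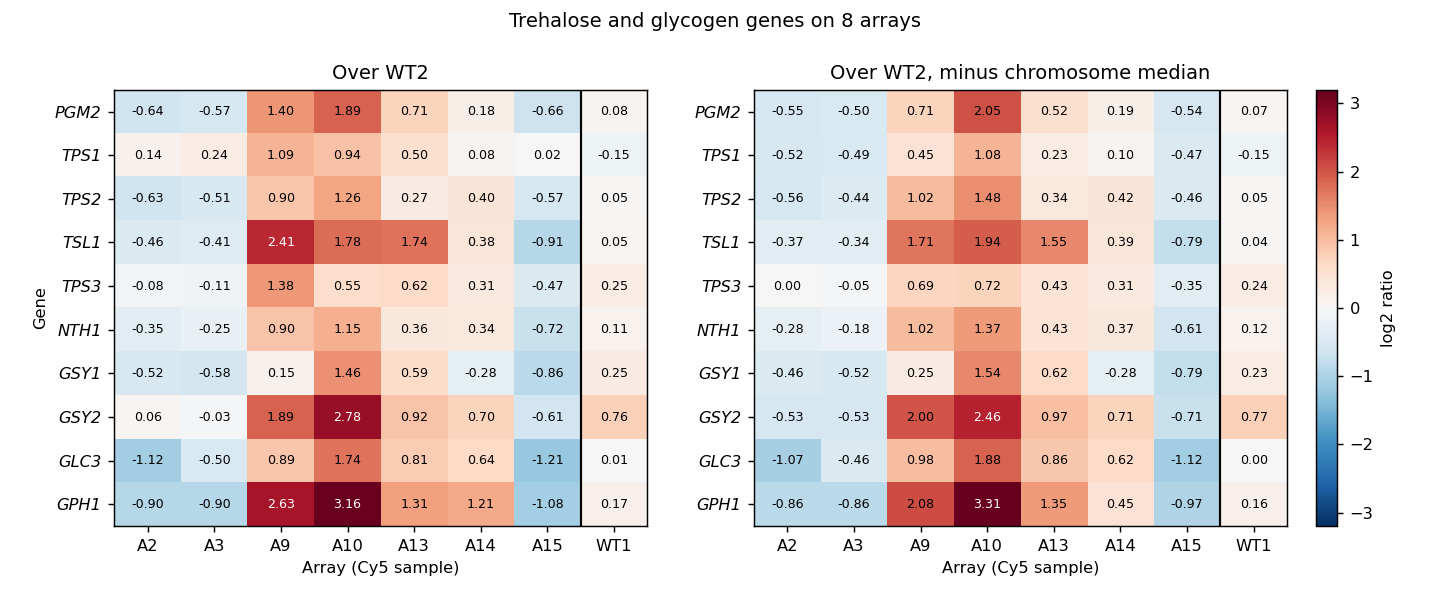
Log2 ratio over WT2 of the 10 trehalose and glycogen genes (rows) on each of the 8 arrays (columns, WT1 at the right), with red above and blue below WT2 and the value printed in each cell. The columns of A9, A10 and A13 are above 0 in all 10 rows, and those of A2, A3 and A15 are below 0 in most rows. The WT1 cell of GSY2 (0.76) rests on 1 discordant spot and was -0.03 without it.

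PGM2 encodes the major phosphoglucomutase, which interconverts glucose 6-phosphate and glucose 1-phosphate at the entry to both reserves. Its ratio was -0.64 in A2, -0.57 in A3, 1.40 in A9, 1.89 in A10, 0.71 in A13, 0.18 in A14 and -0.66 in A15, against 0.08 on WT1. It was past 2-fold above WT2 in A9 and A10 only, and in A2, A3 and A15 it was below both wild-type samples. Relative to chromosome XIII, which was raised in A9, the A9 value was 0.71, and the A10 value was 2.05.

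TPS1 encodes the synthase that makes trehalose 6-phosphate from UDP-glucose and glucose 6-phosphate. Its ratio was 0.14 in A2, 0.24 in A3, 1.09 in A9, 0.94 in A10, 0.50 in A13, 0.08 in A14 and 0.02 in A15, against -0.15 on WT1. TPS1 was the only one of the 10 genes above WT2, and above WT1, in all 7 strains. It lies on chromosome II, and relative to that chromosome it was -0.52 in A2, -0.49 in A3, 0.45 in A9 and -0.47 in A15. TPS1 was therefore below the median of its chromosome in the same 3 strains in which most other members were below WT2.

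TPS2 encodes the phosphatase that turns trehalose 6-phosphate into trehalose. Its ratio was -0.63 in A2, -0.51 in A3, 0.90 in A9, 1.26 in A10, 0.27 in A13, 0.40 in A14 and -0.57 in A15, against 0.05 on WT1. Chromosome IV, which carries TPS2 and NTH1, was raised in 0 strains.

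TSL1 and TPS3 encode related regulatory subunits of the trehalose synthase complex. TSL1 was -0.46 in A2, -0.41 in A3, 2.41 in A9, 1.78 in A10, 1.74 in A13, 0.38 in A14 and -0.91 in A15, against 0.05 on WT1. In A13 only 1 of the genes with a value had a higher ratio than TSL1. TPS3 was -0.08 in A2, -0.11 in A3, 1.38 in A9, 0.55 in A10, 0.62 in A13, 0.31 in A14 and -0.47 in A15, against 0.25 on WT1. Both subunits lie on chromosome XIII, and in A9 they were 1.71 (TSL1) and 0.69 (TPS3) relative to it. The ratio of TSL1 exceeded that of TPS3 in 4 of 7 strains.

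NTH1 encodes neutral trehalase, which splits trehalose into glucose. Its ratio was -0.35 in A2, -0.25 in A3, 0.90 in A9, 1.15 in A10, 0.36 in A13, 0.34 in A14 and -0.72 in A15, against 0.11 on WT1. NTH1 was thus on the same side of WT2 as TPS2, the gene for the last step of making trehalose, in each of the 7 strains. The other trehalase genes, NTH2 and ATH1, were not on the side of TPS2 in all 7 strains. NTH2 was above WT2 in 7 of 7 strains, at 0.40 in A2, 0.72 in A3 and 0.91 in A15. Relative to chromosome II, raised in these strains, it was -0.26, -0.01 and 0.42. ATH1 was above WT2 in 5 of 7 strains, and only in A3, at 0.04, was it on the other side from TPS2. It was -0.08 in A2 and -0.04 in A15.

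GSY1 and GSY2 encode the glycogen synthases, of which Gsy2 is the major form. GSY2 was 0.06 in A2, -0.03 in A3, 1.89 in A9, 2.78 in A10, 0.92 in A13, 0.70 in A14 and -0.61 in A15. On WT1 it was 0.76, or -0.03 without the discordant spot. GSY1 was -0.52 in A2, -0.58 in A3, 0.15 in A9, 1.46 in A10, 0.59 in A13, -0.28 in A14 and -0.86 in A15, against 0.25 on WT1. GSY1 was the only one of the 10 genes below WT2 in A14, and its ratio in A9 was the lowest of the 10 there. Chromosome XII, which carries GSY2, was raised in A2 and A3, and relative to it GSY2 was -0.53 in both strains.

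GLC3 encodes the glycogen branching enzyme. Its ratio was -1.12 in A2, -0.50 in A3, 0.89 in A9, 1.74 in A10, 0.81 in A13, 0.64 in A14 and -1.21 in A15, against 0.01 on WT1. GLC3 gave the largest difference between A2 and A3 among the 10 genes, -0.62 for A2 minus A3, whereas the median size of that difference over the 10 genes was 0.08.

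GPH1 encodes glycogen phosphorylase, which releases glucose 1-phosphate from glycogen. Its ratio was -0.90 in A2, -0.90 in A3, 2.63 in A9, 3.16 in A10, 1.31 in A13, 1.21 in A14 and -1.08 in A15, against 0.17 on WT1. These values correspond to 6.19-fold over WT2 in A9 and 8.96-fold in A10, and to 0.473 of the WT2 level in A15. GPH1 ranked 13th from the top of all genes in A9, 11th in A10 and 9th in A13, and 65th from the bottom in A15. Chromosome XVI was raised in A9 and A14, and relative to it GPH1 was 2.08 in A9 and 0.45 in A14. The enzyme that breaks glycogen down therefore had the widest range of the 10 genes, with an SD of 1.77 over strains.

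Counted at a fold of 2, 17 of the 70 values of genes in strains were past it above WT2 and 3 below. The count below was 6 with a normexp offset of 10 and 7 with Agilent's processed signals or the authors' deposited table, and the count above was 22 with median centring. In A10, 8 of the 10 genes were past it above WT2, where 8.41% of all genes were, and 0 below, where 3.46% were. In A9, 6 of 10 were past it above WT2, where 4.23% of all genes were. In A13, the strain with the fewest genes past 2-fold, TSL1 and GPH1 were among the 0.426% of all genes that were higher. In A14 only GPH1 was past 2-fold, above WT2, against 2.98% of all genes. Lower values past 2-fold were those of GLC3 in A2, where 1.10% of genes were lower and 2.68% higher, and of GLC3 and GPH1 in A15, where 1.27% were lower and 2.29% higher. In A3, where 2.08% of all genes were past 2-fold above and 0.686% below WT2, and on WT1, where 0% were above and 0.0163% below, 0 of the 10 genes were past it. Relative to the chromosome medians, 9 of 10 were past 2-fold above in A10 (5.93% of all genes), 5 in A9 (1.73%) and 2 in A13 (0.262%). On the same scale 1 was past it below in A2 (1.05%) and 1 in A15 (1.19%). None was below in A9 (1.16%), and in A14 0 of the 10 were past it above (0.589%) or below (0.409%).

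**Figure D2:**
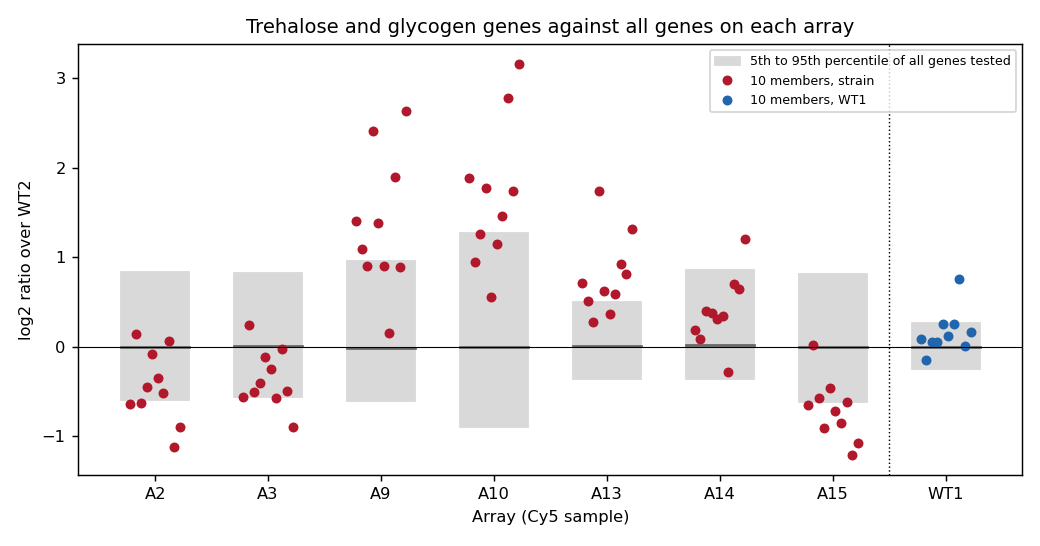
Log2 ratios over WT2 of the 10 genes (points) on each array, over a grey bar from the 5th to the 95th percentile of all genes tested there and a line at their median, with WT1 at the right. Most points of A10 and A13 and 6 of 10 in A9 lie above the grey bar, those of A2, A3 and A15 lie largely below 0, and the WT1 points lie near 0 apart from GSY2.

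Genes of mating also differed between the strains. Of 5 such genes, 3 in A9, 4 in A10, 3 in A15 and 2 each in A2 and A3 were past 2-fold below WT2, and 0 in A13, A14 and WT1. Of all genes, 1.24% were in A9, 3.46% in A10, 1.27% in A15, 1.10% in A2 and 0.686% in A3. The shares were 0.0984% in A13, 0.327% in A14 and 0.0163% on WT1. Past 2-fold above WT2 were 1 of the 5 in A9 (4.23% of all genes) and 1 in A10 (8.41%). Relative to the chromosome medians, 1 was past it above in A9 (1.73% of all genes) and 0 in A10 (5.93%). Past it below were 1 in A2 (1.05%), 1 in A3 (0.588%), 3 in A9 (1.16%), 4 in A10 (2.33%) and 3 in A15 (1.19%). STE2, the receptor for alpha factor, was -6.18 in A9 and -6.38 in A10, against values from -1.84 to 0.08 in the other strains and 0.12 on WT1. HO, the endonuclease of mating type switching, was -5.00 in A10, -1.42 in A9 and -1.64 in A15. STE3, the receptor for a-factor, was 4.66 in A9. STE2 was -0.32 in A13 and 0.08 in A14. The median of the storage genes was 1.24 in A9, 1.60 in A10, 0.67 in A13 and 0.36 in A14. It was -0.49 in A2, -0.45 in A3 and -0.69 in A15. The part that mating state has in the values of the storage genes was not tested.

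The comparison of the 7 strains as 1 group with WT1 asks whether aneuploid cells as a class differ from wild type. It called 0 of the 10 genes, and 0% of all 6126 genes higher and 0% lower (limma, Benjamini-Hochberg adjusted p = 0.999 for each of the 10). At an unadjusted p under 0.05, 32 genes and 0 of the 10 passed. With chromosome medians subtracted 0 genes were called and 53 passed unadjusted. The median difference of the 10 genes, strains minus WT1, was 0.14, with 9 above 0 and 1 below, where the median of all genes was 0.03 and 56.2% were above 0. The median of the 10 was 0.21 without the discordant GSY2 spot, -0.04 without A10 and 0.35 without A15. With A13, A14 and A15 alone, the strains in WT1's row of the slide, it was -0.01. It was 0.32 without A2, 0.25 without A3, 0.02 without A9, 0.08 without A13 and 0.09 without A14. The split of 9 above 0 and 1 below became 4 and 6 without A10, 5 and 5 without A9, and 2 and 8 without both. With A13, A14 and A15 alone it was 4 and 6, and it stayed 9 and 1 without any other single strain. Each median and split with strains left out keeps the discordant GSY2 spot on WT1 and was not recomputed without it. The splits, and the signs of the medians near 0, may therefore depend on that spot.

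The intervals of these differences were wide. GPH1 averaged 0.77 ± 1.77 in the strains (SD, n = 7) and 0.17 on WT1, a difference of 0.61 with a 95% interval from -3.02 to 4.23. TPS1 averaged 0.43 ± 0.43 in the strains (SD, n = 7) and -0.15 on WT1, a difference of 0.58 with an interval from -0.37 to 1.53. TPS1 was higher than WT1 in 7 of 7 strains, as were 6.85% of all genes. None of the 10 was lower than WT1 in all 7 strains, as 7.29% of genes were. After subtraction of chromosome medians none was on 1 side of WT1 in all 7 strains, where 7.59% of genes were higher and 8.13% lower. The other differences ran from -0.26 for GSY1 to 0.60 for TSL1, and that of GSY2 was 0.06, or 0.84 without the discordant spot.

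**Figure D3:**
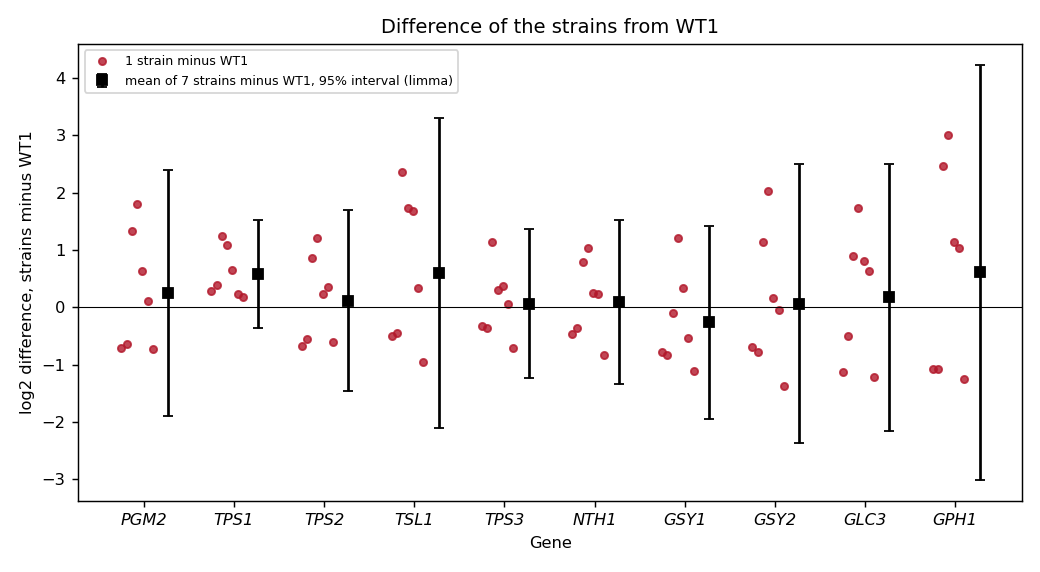
Difference in log2 ratio, mean of the 7 strains minus WT1, for each of the 10 genes, with the 95% interval from limma. Every interval includes 0, from the narrowest, TPS1 (0.58), to the widest, GPH1 (0.61), and the point of GSY2 (0.06) uses the WT1 value with the discordant spot.

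Set directly against WT2, with the spread of wild type left out and any dye effect kept, 0 of the 10 genes were called, where 2.33% of all genes rose and 3.07% fell (143 and 188 genes, but 300 and 253 with Agilent's processed signals). With median centring in place of loess 511 genes rose and 633 fell, and TPS1 was called, at 0.56 (limma adjusted p = 0.0356, against up to 0.633 under the other alternatives). With loess TPS1 came nearest, at 0.43 (SE 0.147, limma adjusted p = 0.111). Relative to its chromosome TPS1 was at 0.05 (adjusted p = 0.872). In that chromosome-relative comparison 5.22% of all genes rose and 6.19% fell, again with 0 of the 10 among them.

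The 10 genes spread widely over the strains. The SD over the 7 strains ran from 0.43 for TPS1 to 1.77 for GPH1, where the median of all genes was 0.32. All but TPS1 were among the most variable 10% of genes. Relative to the chromosome the count was again 9 of 10, TPS1 being inside at 0.60 and TPS3 outside at 0.40. These are descriptions of the same 7 arrays that the per-strain values came from.

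The 10 genes varied together. Over the 7 strains, with chromosome medians subtracted, Pearson's r between 2 of the genes had a median of 0.96 over 45 pairs, and the lowest was 0.85, between TPS3 and GSY1. Each gene's r with the mean of the other 9 lay between 0.926 for GSY1 and 0.995 for GPH1. All strains share the WT2 reference, and the correlations rest on 7 points. Of 6063 other genes, 222 (3.66%) had an r of 0.9 or more with the mean of the 10.

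The genes most like the 10 by this measure included both glucose-phosphorylating enzymes that are known to be repressed by glucose, HXK1 (r = 0.992) and GLK1 (r = 0.988). Also among the 10 closest were YJU3, a monoglyceride lipase, ARA1, an arabinose dehydrogenase, COR1, a subunit of respiratory complex III, and YMR196W, YMR090W, YMR262W and YKL162C. YMR262W is the neighbour of TPS3. Over the 5 strains without A9 and A10 the r of these 9 genes was between 0.958 and 0.996. YJU3 varied little, with an SD of 0.20 relative to its chromosome, whereas HXK1 varied more than any of the storage genes, at 2.03.

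HXK1 encodes hexokinase 1. It was -1.83 in A2, -1.40 in A3, 1.97 in A9, 3.55 in A10, 1.37 in A13, 0.33 in A14 and -1.33 in A15, against -0.03 on WT1. GLK1, which encodes glucokinase, was -1.20 in A2, -0.58 in A3, 1.33 in A9, 0.90 in A13, 0.57 in A14 and -0.77 in A15, against 0.00 on WT1. In A10 a saturated spot makes its 3.05 a lower bound. HXK2, the third gene of this step and the one known to be active on glucose, had a ratio of -0.33 in A9, -0.28 in A2 and -0.17 in A10. It lay between -0.06 and 0.02 in the other strains and was -0.08 on WT1. Relative to its chromosome HXK2 ran from -0.20 to 0.09 over the strains.

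Of the other 8 enzymes of the pathways, 1 was called over WT2, where 2.33% of all genes rose and 3.07% fell, and 0 relative to the chromosome, where 5.22% rose and 6.19% fell. NTH2, the paralog of neutral trehalase, rose over WT2 by 0.68 (SE 0.114, limma adjusted p = 0.032), in 7 of 7 strains. NTH2 lies on chromosome II, and relative to it the difference was 0.30 (adjusted p = 0.122). Without A2, A3, A9, A13 or A15, each left out alone, NTH2 was no longer called over WT2. Against WT1, 0 of the 8 were called. UGP1, which makes UDP-glucose, ran from -0.46 in A2 to 1.45 in A10. GDB1, the glycogen debranching enzyme, ran from -0.44 in A15 to 2.20 in A10. GLG1, a glycogenin that primes glycogen, was 3.99-fold over WT2 in A10 and, as log2 ratios, between -0.08 and 0.42 in the other strains. UGP1 and GLG1 lie on chromosome XI, which was raised in A10 and A15. Relative to it, UGP1 was 0.81 in A10 and -0.99 in A15, and GLG1 was 1.36 and -0.33. The genes UGP1, GDB1 and GLG1 had, relative to the chromosome, the sign of the median of the 10 storage genes in each of the 7 strains, as did 2.85% of genes with a value on all arrays. For GLG1 the values in A2 and A3 were -0.02 and -0.03, smaller in size than the SD of a single spot there.

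**Figure D4:**
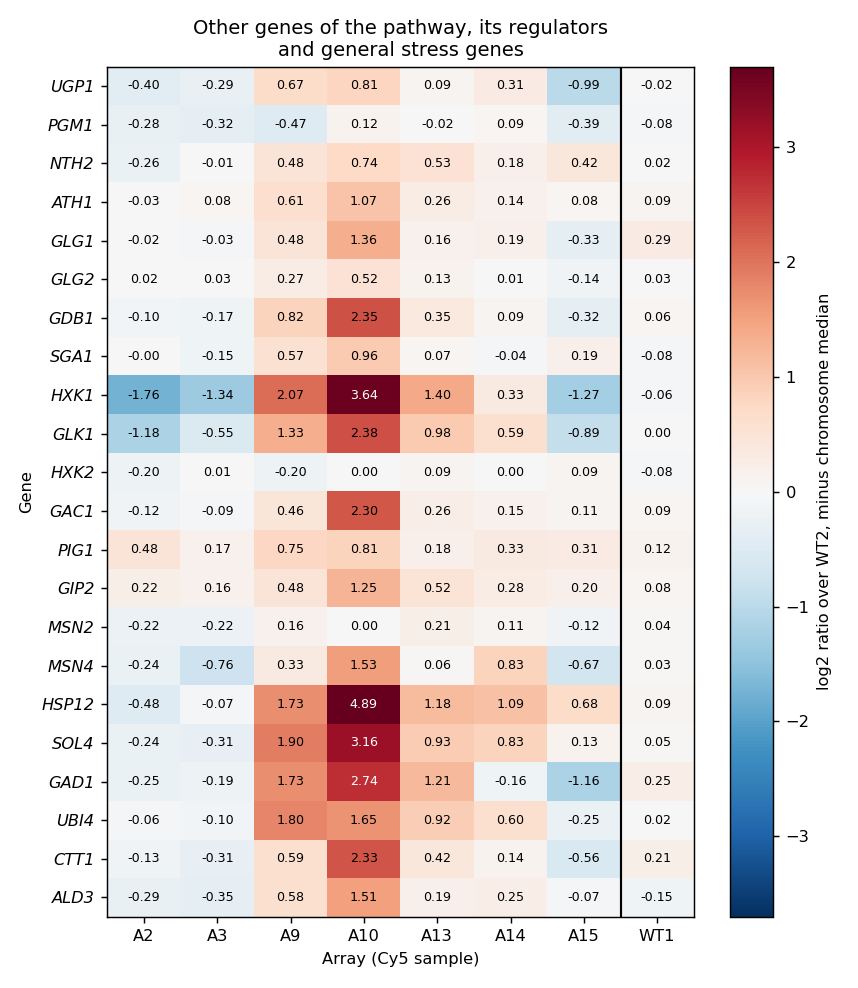
Log2 ratio over WT2 minus the median of the gene's chromosome, for other genes of trehalose and glycogen metabolism, glucose phosphorylation, regulation and stress (rows) on each array (columns, WT1 at the right), with red above and blue below 0. HXK1 and GLK1 are blue in A2, A3 and A15 and red in A9, A10, A13 and A14, whereas PIG1 is above 0 in all 7 strains.

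Among 11 regulators of glycogen synthase, 1 rose over WT2 (2.33% of all genes) and 0 fell (3.07%). Relative to the chromosome 1 rose (5.22% of all genes) and 1 fell (6.19%). PIG1, a targeting subunit of the Glc7 phosphatase, rose by 0.63 (limma adjusted p = 0.0404), and by 0.43 relative to chromosome XII (adjusted p = 0.0257), in 7 of 7 strains. The chromosome-relative call of PIG1 was lost without A2, A3 or A9, and that over WT2 also without A13 or A15. PHO85, a cyclin-dependent kinase that acts on glycogen synthase, fell by 0.30 relative to its chromosome (limma adjusted p = 0.0382), was below 0 in 7 of 7 strains, and stood at -0.16 on WT1. With 1 strain left out, PHO85 was called only where that strain was A10 or A14. GAC1, another targeting subunit, was 2.88 in A10, or 2.30 relative to chromosome XV, which was raised there. The red signal of GAC1 was not well above background in A2 and A3. Against WT1, 0 of the 11 were called, and 0 of the 11 shared the sign of the storage genes in all 7 strains.

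Of 23 genes of protein kinase A and stress signalling, IRA1 rose and SNF4 fell over WT2, where 2.33% of all genes rose and 3.07% fell. With chromosome medians subtracted 2 of the 23 rose and 1 fell, where 5.22% and 6.19% of all genes did, so these counts were near those over all genes. IRA1, a negative regulator of Ras, rose by 0.75 (limma adjusted p = 0.0332), and by 0.37 relative to chromosome II (adjusted p = 0.012), with a value above WT2 in 7 of 7 strains. The chromosome-relative call of IRA1 held with each of the 7 strains left out in turn, and that over WT2 was lost without A2, A3, A9, A13 or A15. SNF4, the activating subunit of the Snf1 kinase that releases genes from glucose repression, fell by 0.29 (adjusted p = 0.0426). SNF4 also fell relative to its chromosome, by 0.20 (adjusted p = 0.0468), and on WT1 it was 0.16. With 1 strain left out, SNF4 was called only where that strain was A10. HSF1, the heat shock factor, rose by 0.25 relative to its chromosome only (adjusted p = 0.0232), with 0.22 on WT1. It was no longer called without A2, A3, A9 or A13. MSN4, a transcription factor of the stress response, ran relative to its chromosome from -0.76 in A3 to 1.53 in A10. MSN2, its paralog, ran from -0.22 to 0.21 and was 0.00 in A10. Relative to the chromosome, 2 of the 23 genes, MSN2 and MSN4, had the sign of the median of the storage genes in each of the 7 strains. Of all genes with a value on all arrays, 2.85% did, and of the 10 storage genes themselves 8 did. The count of MSN2 rests on its 0.00 in A10, a value too near 0 to tell its sign.

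Genes that are known to be induced with the storage genes under stress gave a list median of -0.21 in A2, -0.14 in A3, 1.63 in A9, 1.97 in A10, 0.49 in A13, 0.21 in A14 and -0.15 in A15, against 0.05 on WT1. HSP12, a small membrane-stabilising heat shock protein, was 4.80 in A10 and 0.12 on WT1. It was 0.62 in A15, where the median of the storage genes was -0.69. HSP26, a small heat shock chaperone, rose over WT2 by 0.93 (limma adjusted p = 0.0426), was above WT2 in 7 of 7 strains, and is the only one of the 11 called, where 2.33% of all genes rose and 3.07% fell. HSP26 was not called with any 1 strain left out, and relative to chromosome II it was 0.56 (adjusted p = 0.162). CTT1, cytosolic catalase, was 2.16 in A10 and -0.64 in A15. The calls over WT2 depend on single strains: 0 genes were called without A2, A3 or A9, 3 without A13 and 120 without A15, against 331 with all 7. The 699 calls relative to the chromosome became 158 without A2, 96 without A3, 169 without A9, 316 without A13 and 411 without A14.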

How the data were processed

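The authors quantified the spots with Agilent Feature Extraction, version 10.5.1.1 as the file headers give it. Per the file headers, the deposited scanner output holds raw median intensity of spot and local background for red and green, a processed intensity with background and dye correction, and a log10 ratio (red over green). The value table that the authors deposited is in log2, with a median of 0 on each array, and equals the log10 ratio rescaled to log2 within 5e-04. From the raw medians, normexp (offset 50) and within-array loess were run in limma 3.58.1 under R 4.3.3, giving the 536 control spots weight 0. Feature outliers were left out, saturated spots stayed in, and the 2 spots of a gene were averaged. The filter kept 6126 of 6256 genes, those well above background in red or green on 2 arrays or more. Of these, 53 lacked a value on some array, and none of the 10 storage genes did. A gene table of assembly R64 gave symbols, chromosomes and neighbours for 5756 genes. Its coordinates were not used, since the array was designed on an earlier build.

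The 7 strains were treated as replicates of 1 aneuploid group, with the spread of the single WT1 array taken to equal theirs. Tests were limma's lmFit and eBayes, two-sided, with Benjamini-Hochberg adjustment over all genes tested (threshold 0.05), on the ratios and after subtracting chromosome medians. The fits against WT2 used the 7 strain arrays. The named genes were the 10 members, the genes of 6 further lists, and the 10 other genes with the highest Pearson r with the mean of the members over the strains, of which 1 is not reported here. The members and lists were chosen with earlier results of these data known. The comparison of signs over strains, the paralog pairs and 2 of the alternatives were added after the data were seen. Alternatives were other background corrections, normalizations, centrings, signal filters and subsets of the strains. The steps were tested on simulated data.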

Additional observations from a re-analysis of the deposited data

How the results depend on the processing

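Against WT1, limma called 0 genes under each of the 20 alternatives (14 to 74 at an unadjusted p under 0.05, and 36 to 109 relative to the chromosome). The signs of the 70 values of the 10 genes in strains were the same under other background corrections, Agilent's processed signals, the deposited value table and centring on the mode. With median centring in place of loess 69 were, GSY2 in A3 being 0.05 in place of -0.03. Of the values over WT2, TPS1 passed the threshold with median centring (0.56, limma adjusted p = 0.0356), and its adjusted p over the 20 alternatives ran from 0.0356 to 0.633. IRA1 relative to its chromosome was called in 18 of 20, SNF4 in 4 of 20 and HSP26 over WT2 in 9 of 20.

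The 331 genes called over WT2 became 1144 with median centring (511 higher and 633 lower), 553 with Agilent's processed signals (300 higher and 253 lower) or the deposited table, 184 with the slide row as a block, and 0 without A9 and A10, in the slide row of WT1 alone, or without A2 and A3. Relative to the chromosome the 699 became 1496 with median centring (625 higher and 871 lower), 328 without A9 and A10, and 0 in that row alone or without A2 and A3. With each strain left out in turn, the counts ran from 0 (without A2, A3 or A9) to 469 (without A10) over WT2, and from 96 (without A3) to 853 (without A10) relative to the chromosome. The 20 values past 2-fold became 6 without A9 and A10, 5 in the slide row of WT1, and 12 to 20 with each strain left out. The median of the 10 genes, strains minus WT1, was 0.14. With the discordant GSY2 spot on WT1 kept, it ran from -0.04 without A10 to 0.35 without A15. In the same way it was -0.25 without A9 and A10, 0.49 without A2 and A3, and -0.01 with the slide row as a block. The causes were not tested. Leaving out A2 and A3, and leaving out spots with a background flag, were chosen after seeing the data. No paired analysis was possible because each strain was measured once and WT1 on 1 array. Signal over background did not limit the 10 genes, since all 80 values were well above it.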

Other observations

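Paralogs of the storage genes were compared within the strains by an exact two-sided sign-flip test over 7 strains, which can give no p below 0.0156, adjusted over 4 pairs. GSY2 exceeded GSY1 in 7 of 7 strains, by a mean of 0.82 ± 0.55 on the log2 ratio scale (exact p = 0.0156, adjusted 0.0625). Relative to the chromosome the difference was 0.57 ± 0.67 and positive in 5 of 7 (exact test, adjusted p = 0.312). On WT1 the difference in log2 ratio over WT2 was 0.50, which rests on the discordant GSY2 spot. Without that spot GSY2 was -0.03 on WT1, below GSY1 at 0.25. The neutral trehalase NTH1 was lower in ratio than NTH2 by a mean of -0.47 ± 0.73 (exact test, adjusted p = 0.281), and relative to the chromosome the difference was 0.00. TSL1 exceeded TPS3 by a mean of 0.33 ± 0.76 (exact test, adjusted p = 0.354), and PGM2 exceeded PGM1, the minor phosphoglucomutase, by 0.32 ± 0.97 (exact test, adjusted p = 0.438). A lone pair at the smallest possible p has an adjusted p of 0.0625, so no single pair could pass 0.05, and the adjusted values do not bear on whether the pairs differ.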
